A study of Mus musculus with 9 samples.

Results

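The subject is a set of 10 mouse genes that were more abundant in natural peritoneal B1 cells than in B cells switched to a B1-type antigen receptor. They are Krt8, Fzd6, Cd3g, Fbxw13, Prodh, Gramd4, Sipa1l1, Cyth3 and the non-coding genes AI427809 and E330020D12Rik, out of 22178 genes in the deposited table. They were chosen by their measured TPM, as higher in the B1 than in the B2B1 libraries, so the gap between these groups is given as a description with no test. Polyadenylated RNA was sequenced from 3 groups of B cells, with 3 libraries each, from mice backcrossed to C57BL/6. B2 cells came from the spleen under the strain label VH12B1-8/Vk4. B1 cells came from the peritoneal cavity under the strain label B1-8VH12/Vk4, and B2B1 cells shared that site and strain label, but their B cell receptor (BCR) had been switched about 30 days before they were collected. Organ and strain label therefore changed together with cell type in every comparison with B2, and these cannot be told apart. The labels do not give ages, the sorting gates, the means of the switch or whether each library is a mouse of its own. The p-values therefore speak only of the variation among these libraries, which may be technical in part. Libraries of both sexes occur in B2 and in B2B1 (below), so not all libraries of these groups share a mouse.

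B1 cells are long-lived, self-renewing B cells of the body cavities that secrete natural antibody, and B2 cells are the conventional recirculating B cells of spleen and lymph nodes. The VH12 heavy chain paired with the Vk4 light chain binds phosphatidylcholine and is a textbook B1 receptor. The comparison of switched with natural cells shows which B1 transcripts differ between them at a shared site. A difference of switched cells from B2 cannot be assigned to the receptor, because organ and strain label change with it.

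Levels are TPM, each gene's share of a library's transcripts corrected for gene length, and differences are on the log2(TPM + 1) scale. TPM keep no read counts, so depth is unknown, and a library's values added up to 894515 to 943043 TPM. In a bulk library, fewer cells that express a gene and less RNA per cell cannot be told apart. Every library was rich in the signalling chains of the BCR that mark B cells, with Cd79a at 2393 to 3098 TPM and Cd79b at 2676 to 3519 TPM. The 8 listed B-1 markers summed to 24.1 to 25.7 TPM in B2, 1337 to 1637 TPM in B2B1 and 878 to 1087 TPM in B1. Sex was not balanced between the groups: B2 library 2 and B2B1 libraries 1 and 2 held the Y-linked Ddx3y at 56.9 to 75.3 TPM, and the remaining libraries, which include every B1 library, held Xist, made from the inactive X, at 180.4 TPM or above. None of the 10 genes lies on X or Y. The macrophage markers, 7 of the 8 listed being in the table, summed to 1.40 to 2.55 TPM in B2, 63.5 to 241.2 TPM in B2B1 and 21.1 to 45.7 TPM in B1. The sum was thus above B2 in both peritoneal groups and highest in B2B1. The part of macrophages in the levels of the 10 genes was not tested. The 10 cycling cell markers summed to 21.5 to 25.7 TPM in B2, 55.8 to 129.9 TPM in B2B1 and 26.3 to 95.2 TPM in B1, with the highest sums in B2B1 library 1 and B1 library 2. The lists of NK cell, mast cell and eosinophil, dendritic cell and neutrophil markers each summed to under 20.0 TPM in every library, and to at most 4.87 TPM in a peritoneal one.

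All 10 genes were called higher in B1 than in B2 (limma adjusted p from 1.14e-07 to 0.00301), against 18.0% of the 11099 genes tested. A gene was tested at a mean of at least 1 TPM over the 9 libraries and called at an adjusted p under 0.05. The log2 differences ran from 1.05 for Cyth3 to 5.59 for Krt8, with a median of 2.46 against −0.14 over all tested genes. B1 lay above B2 with no overlap for all 10, as for 21.9% of tested genes. The B1 libraries took part in the choice of the genes, so neither these calls nor the overlaps are independent of it. Of the 10, 9 passed the filter on low values without the B1 libraries, and Cd3g passed only through B1.

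In B2B1, 3 of the 10 were called higher than in B2, against 21.0% of tested genes. With TPM rescaled by median-of-ratios factors 5 were called, the added genes being Prodh and E330020D12Rik. The first 3 were Fbxw13, Krt8 and Fzd6, so for them the description as genes that switched cells did not gain goes against the data. They were also called without B2B1 library 1, which had the highest macrophage and cycling sums. In B2B1 libraries 2 and 3 the macrophage sums (63.5 and 87.1 TPM) and cycling sums (55.8 and 56.6 TPM) were still above those of B2. The part of such cells in these calls was not tested. The other 7 (E330020D12Rik, Gramd4, Prodh, Cd3g, AI427809, Cyth3 and Sipa1l1) were not called, with log2 differences from 0.06 to 0.56 (limma adjusted p from 0.104 to 0.726). The upper bounds of their 95% intervals lay between 0.40 and 1.19, and a log2 difference of 1 lay within the interval for E330020D12Rik and Gramd4 but not for the other 5 at this pseudocount. For Cd3g, near 0 TPM in both groups, the size depends on that choice: the difference was 0.29 as fitted and 1.21 with a pseudocount of 0.1, and mean TPM was 3.05-fold higher in B2B1. All 10 group means were above B2 in B2B1, but the log2 differences of AI427809, Cyth3 and Sipa1l1 turned sign in some alternatives. The median difference of the 10 was 0.41 against −0.19 over all tested genes. B2B1 lay above B2 with no overlap for 4 of the 10 (Fbxw13, Krt8, Fzd6 and Cd3g), against 24.5% of tested genes. Genes called lower than in B2 made up 33.9% of those tested in B1 and 42.0% in B2B1, and none of the 10 was among them. The B2B1 libraries also took part in the choice. Median-of-ratios scaling brings the median of all tested genes close to 0 (−0.0031 in B2B1 against B2), and the calls of 2332 higher and 4663 lower genes then become 3380 and 3171. The corresponding counts for B1 against B2 are 2003 and 3762 as deposited and 2768 and 2547 after scaling.

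**Figure D1:**
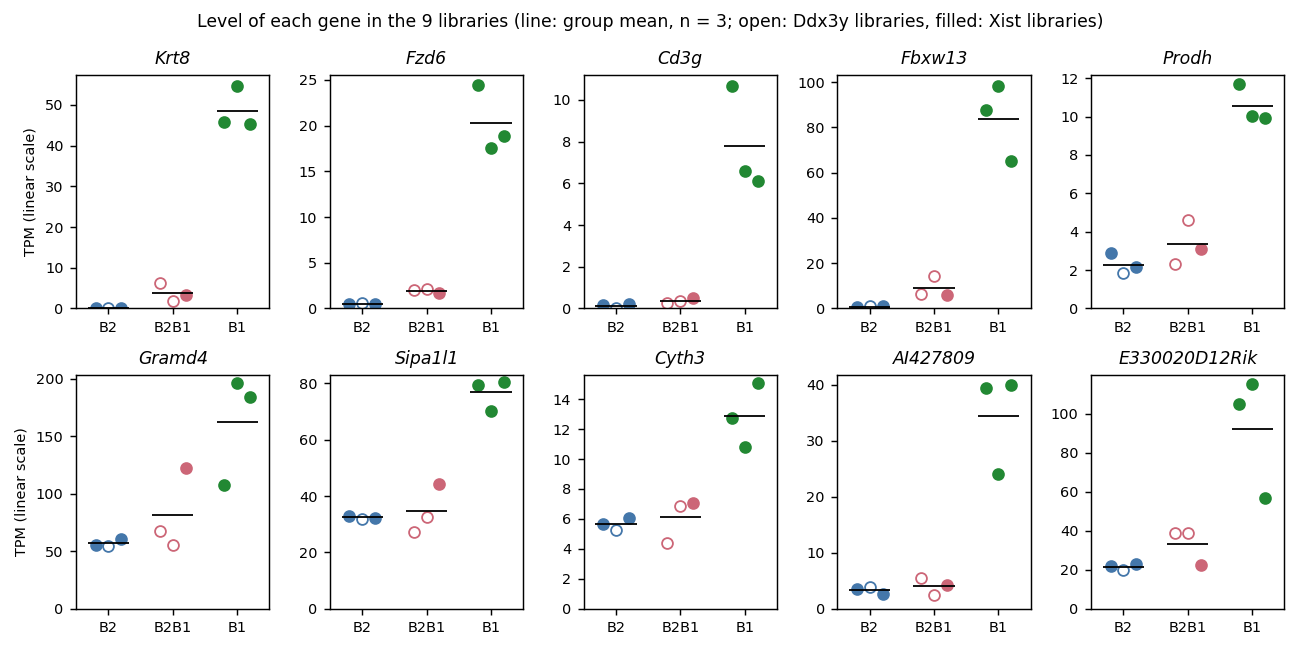
TPM on a linear axis of each of the 10 genes in the 9 libraries, by group, with a line at the group mean (n = 3); open points are the 3 libraries with Ddx3y and filled points those with Xist. For 9 of the 10 genes every B1 point lies above every B2B1 point, and the exception is Gramd4, where B2B1 library 3 (122 TPM) lies above B1 library 1 (108 TPM).

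Between B1 and B2B1, the contrast that chose the genes, log2 differences ran from 0.97 for Cyth3 to 3.49 for Krt8, with a median of 2.05 against 0.06 over all tested genes. By the same model 12.1% of tested genes were called higher in B1 and 6.93% lower, and 23.7% had B1 above B2B1 with no overlap, as had 9 of the 10. The 1339 higher and 769 lower calls behind these shares become 944 and 1047 after median-of-ratios scaling, and the median of the 10 genes is then 2.02. Of the 11099 tested genes, 3 had a larger difference than Krt8, 5 than Fbxw13, 9 than Fzd6, 10 than AI427809 and 14 than Cd3g. These 5 genes formed a steep group at 2.65 or more. The other 5 formed a shallow group between 0.97 and 1.44, with 118 tested genes above Prodh and 282 above Cyth3.

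**Figure D2:**
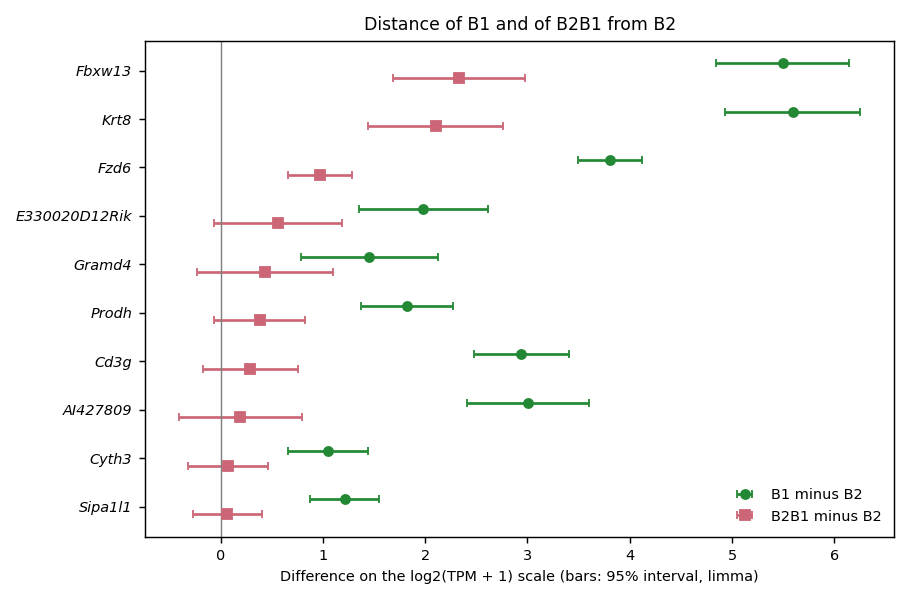
Difference of B1 (circles) and of B2B1 (squares) from B2 on the log2(TPM + 1) scale with 95% intervals from limma, both against the same 3 B2 libraries. The B1 intervals of all 10 genes lie above 0, and the B2B1 intervals lie above 0 for Fbxw13, Krt8 and Fzd6.

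How far B2B1 lay from B2 towards B1 depended on the scale. On group mean TPM, B2B1 stood at 2.39% (AI427809) to 23.5% (Gramd4) of the distance. On the log2 scale it stood at 5.28% (Sipa1l1) to 42.4% (Fbxw13). Fbxw13, Krt8 and Fzd6 differed the most between scales: Fbxw13 stood at 9.73% on TPM against 42.4% on the log2 scale, Krt8 at 7.69% against 37.6% and Fzd6 at 7.33% against 25.5%. AI427809, Cyth3 and Sipa1l1 stayed under 7.17% on TPM and at or under that value on the log2 scale.

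**Figure D3:**
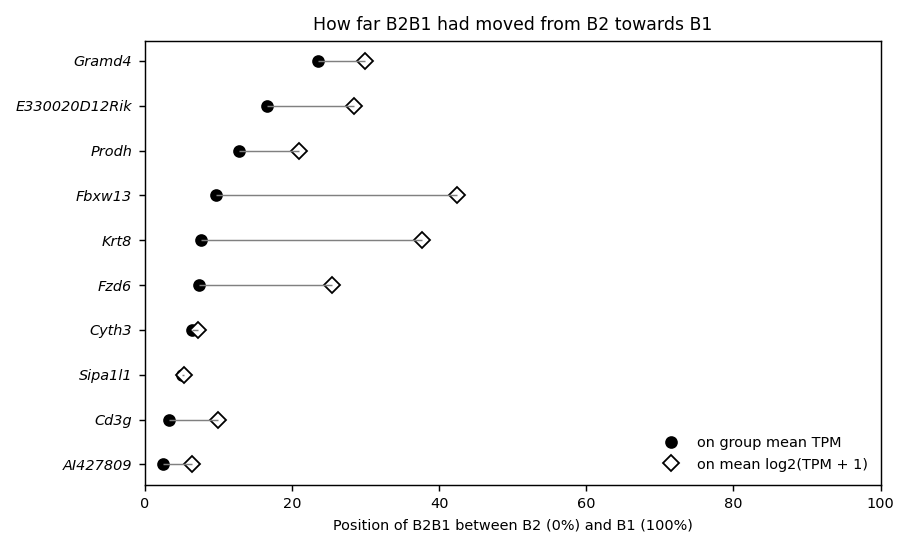
Position of the B2B1 mean between the B2 mean (0%) and the B1 mean (100%) for each gene, on TPM (filled circles) and on log2(TPM + 1) (open diamonds). No gene passes 23.5% on TPM or 42.4% on the log2 scale, and the marks of Fbxw13 and Krt8 lie farthest apart.

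Krt8 encodes keratin 8, a type II intermediate filament protein of simple epithelia that pairs with the type I keratin 18. Its gene lies on chromosome 15 at 101996698 to 102004482 on the minus strand (GRCm38, GENCODE M21, as for all gene positions here). Krt8 was at 0.0745, 0 and 0 TPM in B2 libraries 1 to 3, at 6.21, 1.71 and 3.36 TPM in the B2B1 libraries and at 45.9, 54.7 and 45.2 TPM in the B1 libraries. The groups formed 3 separate steps, with B2 at or near 0 and every B1 library far above every B2B1 library. Krt8 was higher in B1 than in B2 by 5.59 ± 0.29 on the log2 scale (SE, limma adjusted p = 9.08e-07) and higher in B2B1 than in B2 by 2.10 (95% interval 1.44 to 2.76, limma adjusted p = 0.00024). Because B2 is listed at 0 in 2 libraries, these sizes depend on the pseudocount. From B2B1 to B1 the mean TPM differed 12.9-fold, and the coefficient of variation was 60.5% in B2B1 against 10.9% in B1. Of the stretches of 31 bases in Krt8 transcripts, 36.0% also occur elsewhere, 32.2% in the pseudogene Krt8-ps. No level was available for Krt8-ps, so the level of Krt8 is uncertain to that extent.

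The partner Krt18 showed the same 3 steps of group means with a smaller last one. It averaged 0.0862 ± 0.149 TPM in B2, 9.45 ± 6.36 TPM in B2B1 and 25.2 ± 8.38 TPM in B1 (SD, n = 3). Krt18 was higher in B2B1 than in B2 by 3.10 ± 0.41 on the log2 scale (SE, limma adjusted p = 0.000169). Its difference between B1 and B2B1, 1.45 ± 0.41 (limma adjusted p = 0.0373), was no longer called in 12 of 20 alternative analyses. Leaving out any library other than B2B1 library 1 and B1 library 2 was enough to lose it, at values from 1.04 to 1.45. Among genes of the table that do not overlap Krt8, Krt18 is the nearest on one side, 23698 bases away, and Krt78 on the other side was listed at 0 in all libraries. The lincRNA gene Gm36026 on the opposite strand shares 101 exon bases with Krt8. No level was available for Gm36026, so reads there cannot be told apart. Of the 18 listed keratins and filament partners, 7 were tested, and 6 were called higher in both B1 and B2B1 than in B2, with a median log2 difference of 3.16 in B1 and 3.10 in B2B1. Among them were Vim, the mesenchymal filament protein vimentin, at 315 ± 39.9 TPM in B2, 2739 ± 369 TPM in B2B1 and 2894 ± 889 TPM in B1, and Krt222, a keratin-like protein, which averaged 5.75 ± 0.252, 93.3 ± 12.3 and 61.4 ± 17.4 TPM in the same order. Neither Vim nor Krt222 was called between B1 and B2B1 (limma adjusted p = 0.903 and 0.0543). Ppl, the plakin periplakin, was lower in B2B1 than in B2 by 1.97 ± 0.27 on the log2 scale (limma adjusted p = 0.000216). In B1 against B2B1, 2 listed genes were called higher and 1 lower, with a median of 0.04. Where Krt18 is lost the higher count is at most 1, and the lower count was 0 without B2B1 library 1 or 3 and 2 without B1 library 2. For this and the later lists, the shares over all tested genes are 18.0% higher and 33.9% lower in B1 than in B2. They are 21.0% and 42.0% in B2B1 against B2, and 12.1% and 6.93% in B1 against B2B1.

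Keratins 8 and 18 also mark mesothelium, which lines the peritoneal cavity. Of the 11 listed mesothelial markers, Msln, Upk3b, Krt19, Wt1 and Upk1b were listed at 0 in all 9 libraries. The list summed to 0.527 to 1.01 TPM in B2, 5.90 to 20.3 TPM in B2B1 and 17.0 to 34.6 TPM in B1, and Krt18 itself carried most of that sum in every peritoneal library. Gpm6a was at 0.112 to 0.131 TPM in B2, 1.09 to 3.55 TPM in B2B1 and 0.245 to 1.08 TPM in B1, above B2 in every peritoneal library. Lrrn4 went the other way, at 0.256 to 0.667 TPM in B2, 0.0869 to 0.131 TPM in B2B1 and 0.0891 to 0.188 TPM in B1. Cldn15 was lower in B1 (0.0577 to 0.116 TPM) than in B2 (0.123 to 0.163 TPM), and its B2B1 values overlapped B2. The part of these cells in the Krt8 level was not tested.

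The promoters of Krt8, Cd3g and Cyth3 are shown as examples of the window, 250 bases before to 50 after the annotated start, for a filament gene, a receptor chain and a signalling gene. RefSeq on GRCm38.p6 held a window for 7 of the 10 genes. Capitals mark matches on either strand to any of 6 motifs searched: the TATA motif spelled TATAAA, the CCAAT box, the GC box spelled GGGCGG, the E box spelled CACGTG, the AP1 motif spelled TGANTCA and the EBF motif.
Krt8, chr15:102004293-102004592, minus strand: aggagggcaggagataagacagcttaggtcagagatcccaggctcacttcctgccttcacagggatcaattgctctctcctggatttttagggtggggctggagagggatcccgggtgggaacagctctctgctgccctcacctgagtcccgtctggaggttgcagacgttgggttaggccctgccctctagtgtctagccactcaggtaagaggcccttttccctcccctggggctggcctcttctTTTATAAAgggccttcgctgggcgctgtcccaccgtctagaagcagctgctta
Cd3g, chr9:44980382-44980681, minus strand: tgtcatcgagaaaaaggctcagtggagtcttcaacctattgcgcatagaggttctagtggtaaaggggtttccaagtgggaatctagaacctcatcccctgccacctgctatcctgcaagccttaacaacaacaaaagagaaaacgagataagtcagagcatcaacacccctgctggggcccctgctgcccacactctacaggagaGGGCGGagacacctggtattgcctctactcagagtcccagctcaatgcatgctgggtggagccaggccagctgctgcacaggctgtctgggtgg
Cyth3, chr5:143622197-143622496, plus strand: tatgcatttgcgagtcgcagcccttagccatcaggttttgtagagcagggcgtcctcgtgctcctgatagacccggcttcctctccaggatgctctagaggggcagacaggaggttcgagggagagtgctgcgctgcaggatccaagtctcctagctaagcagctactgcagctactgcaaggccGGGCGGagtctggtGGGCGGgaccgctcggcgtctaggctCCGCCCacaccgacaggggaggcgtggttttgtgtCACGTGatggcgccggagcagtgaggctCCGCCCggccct
The Krt8 window holds TATAAA on both strands at 1 overlapping place across the RefSeq start, a motif found in 13.6% of all 32851 promoter windows. The GENCODE span of Krt8 reaches 102004482, within this window. Part of the sequence before the RefSeq start therefore lies inside that span, and the place of the motif relative to the start depends on the annotation. Cd3g holds 1 GC box, found in 35.7% of windows. Cyth3 holds 4 GC boxes and 1 E box, and the E box is found in 7.15% of windows. The windows differ in CpG number, with 6 in Krt8, 4 in Cd3g and 21 in Cyth3 against a median of 7, and no motif of this set occurs in all 3. CCAAT occurs in 37.4% of windows, AP1 in 7.81% and EBF in 0.904%.

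Fzd6 encodes Frizzled 6, a Wnt receptor that acts mainly in planar cell polarity and patterns hair in mice. The gene lies on chromosome 15 at 39006034 to 39038188 on the plus strand. It shares 152 exon bases with Gm26704 on the opposite strand, a noncoding gene for which no level was available, so reads there cannot be told apart. Fzd6 was at 0.492, 0.559 and 0.468 TPM in the B2 libraries, at 1.98, 2.15 and 1.73 TPM in B2B1 and at 24.4, 17.5 and 18.9 TPM in B1. The 3 groups were separate and tight within themselves, and B2B1 lay just above B2. Fzd6 was higher in B1 than in B2 by 3.81 ± 0.14 on the log2 scale (SE, limma adjusted p = 1.14e-07) and higher in B2B1 than in B2 by 0.97 (95% interval 0.66 to 1.28, limma adjusted p = 0.000272). On mean TPM, B1 was 10.4-fold above B2B1.

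No other Frizzled gene had a level like that of Fzd6 in B1. Of the 9 others, Fzd5 was the only one tested, at 2.66 ± 0.572 TPM in B2, 1.83 ± 0.422 TPM in B2B1 and 1.92 ± 0.339 TPM in B1, and it was called in none of the 3 comparisons (limma adjusted p = 0.0914 or more). Fzd3 averaged 0.278 to 0.589 TPM and Fzd7 0.15 to 0.615 TPM over the groups. Of the 15 tested genes of the Frizzled and Wnt list, 2 were called higher and 7 lower in B1 than in B2, and 3 higher and 8 lower in B2B1 than in B2, with medians of −0.26 and −0.37. After median-of-ratios scaling, 5 were called lower in B1 and 6 in B2B1. Ryk, a Wnt co-receptor with a kinase-like domain, was at 0.318 ± 0.321 TPM in B2, 11.1 ± 1.36 TPM in B2B1 and 19.8 ± 3.99 TPM in B1. Ryk was higher in B2B1 than in B2 by 3.22 ± 0.21 on the log2 scale and in B1 by 3.99 ± 0.21 (limma adjusted p = 2.56e-06 and 8.89e-07). Vangl2, a core planar polarity protein that works with Frizzled receptors, fell by 2.23 on the log2 scale in B2B1 against B2 (limma adjusted p = 3.83e-06) and by 2.06 in B1 (limma adjusted p = 8.1e-06). Apc, a scaffold of the beta-catenin destruction complex, was lower in B2B1 than in B2 (16.4 ± 0.946 against 31.6 ± 0.67 TPM, limma adjusted p = 6.97e-06) and stood at 22.7 ± 1.03 TPM in B1. Against B2B1, B1 had 5 listed genes called higher and 0 lower by limma (6 and 2 at an unadjusted p under 0.05), with a median of 0.15. The higher count was 1 without B2B1 library 1 or B1 library 1, 2 without B2 library 1, B2B1 library 2 or B1 library 3, 3 without B2 library 3 or B2B1 library 3, and 0 among the Xist libraries alone. The lower count was 1 without B2B1 library 3 or B1 library 3.

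Cd3g encodes CD3 gamma, a chain of the T cell receptor complex, from chromosome 9 at 44969572 to 44980431 on the minus strand. Cd3g was at 0.145, 0 and 0.221 TPM in the B2 libraries, at 0.26, 0.346 and 0.512 TPM in B2B1 and at 10.7, 6.62 and 6.12 TPM in B1. The B1 libraries stood apart from both other groups, in which no value passed 0.512 TPM. Cd3g was higher in B1 than in B2 by 2.94 ± 0.20 on the log2 scale (SE, limma adjusted p = 5.26e-06). It was chosen by its B1 level and passed the filter on low values only through B1, so that p-value gives no independent support. The difference of B2B1 from B2 was 0.29 (95% interval −0.17 to 0.75, limma adjusted p = 0.24). On mean TPM, B1 was 21.0-fold above B2B1, the widest ratio of the 10 genes, although both lower groups are close to 0.

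None of the other chains of the complex was called higher in B1 than in B2. Cd3e was at 0.0837 TPM or less in every library, and Cd247, the zeta chain, at 0.616 TPM or less, so neither was tested. Cd3d, which starts 1355 bases from Cd3g and is transcribed away from it, was at 5.1 ± 1.44 TPM in B2, 3.48 ± 1.6 TPM in B2B1 and 7.41 ± 0.963 TPM in B1. Its difference between B1 and B2B1, 0.97 ± 0.26 on the log2 scale (limma adjusted p = 0.0343), was lost in 14 of 20 alternatives, at 0.69 to 1.06 when any library other than B2 library 3 and B2B1 library 3 was left out. Among T cell markers, Cd4, Zap70, Cd28, Bcl11b, Themis and Thy1 stayed below 0.5 TPM in all libraries. Cd8a was at 1.57 to 2.06 TPM over the 9 libraries, Lat at up to 5.53 TPM in B2 and at most 0.984 TPM in the peritoneal groups, Il7r at up to 1.71 TPM and Cd8b1 at up to 1.58 TPM. The 16 T cell markers summed to 287 to 340.5 TPM in B2, 816 to 901 TPM in B2B1 and 734 to 900 TPM in B1. Cd2, an adhesion receptor, carried most of that sum, at 301 ± 26.6 TPM in B2, 828 ± 41.3 TPM in B2B1 and 801 ± 84.6 TPM in B1. Of the 7 tested genes of the T cell receptor list, 3 were called higher and 2 lower than in B2, both in B1 and in B2B1, with medians of 0.48 and −0.04. Lck, the Src family kinase of T cells that B1 cells also use, averaged 6.72 ± 0.308 TPM in B2, 17.9 ± 1.93 TPM in B2B1 and 12.4 ± 2.52 TPM in B1 and was higher in B2B1 than in B2 (limma adjusted p = 6.55e-05). Sit1, an adaptor that dampens T cell receptor signals, fell by 2.04 on the log2 scale in B2B1 against B2 (limma adjusted p = 6.32e-05). Between B1 and B2B1, 1 gene was called higher and 2 lower, with a median of −0.05. The higher count was 0 wherever Cd3d was lost. Lck, 1 of the 2 lower calls, was lost in 12 of 20 alternatives, at −0.56 to −0.34 when any library other than B2B1 library 1 and B1 library 3 was left out, and the lower count was then 1.

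Fbxw13 belongs to a rodent family of F-box and WD-repeat proteins, and F-box proteins choose the substrates of SCF ubiquitin ligases. Fbxw13 was at 0.558, 1.05 and 0.991 TPM in the B2 libraries, at 6.42, 14.2 and 6.16 TPM in B2B1 and at 87.5, 98.5 and 65 TPM in B1. The groups did not overlap, and B2B1 library 2 was the highest of its group. Fbxw13 was higher in B1 than in B2 by 5.49 ± 0.29 on the log2 scale (SE, limma adjusted p = 8.89e-07). It was higher in B2B1 than in B2 by 2.33 (95% interval 1.68 to 2.98, limma adjusted p = 0.000114), which was 10.3-fold on mean TPM, and B1 was again 9.38-fold above B2B1.

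The nearest measured neighbours of Fbxw13 on the chromosome were listed at 0 in these libraries. Fbxw13 lies on chromosome 9 at 109179227 to 109195975 on the minus strand, and its neighbours Fbxw21 (17186 bases away) and Fbxw20 (21457 bases away) were listed at 0 in all 9 libraries, as was Fbxw14. In all, 10 of the 20 other Fbxw genes listed were at 0 throughout. Near copies share 16.3% of the 31-base stretches of Fbxw13, the most with Fbxw21 (7.56%), so reads could be split between them. Fbxw15 (6.5%) was also listed at 0, and no level was available for Fbxw27 (5.57%). Of the 14 tested genes of the Fbxw and SCF list, 4 were called higher and 5 lower in B1 than in B2, and 4 higher and 6 lower in B2B1 than in B2, with medians of −0.18 and −0.13. The 5 lower calls in B1 were 3 without B2 library 1, B2 library 2 or B1 library 3, and 2 after median-of-ratios scaling. The 6 lower calls in B2B1 were 3 after that scaling. Fbxw7, the substrate receptor for MYC and cyclin E, was at 19.8 ± 1.07 TPM in B2, 38 ± 0.999 TPM in B2B1 and 35.2 ± 4.25 TPM in B1. Fbxw17 was higher in B2B1 than in B2 by 0.92 ± 0.11 on the log2 scale (limma adjusted p = 9.3e-05), at 13.7 ± 1.64 against 6.74 ± 0.168 TPM. For B1 against B2B1, limma called 0 listed genes higher and 1 lower, also the counts at an unadjusted p under 0.05, with a median of −0.03.

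Prodh encodes proline dehydrogenase, the mitochondrial enzyme of the first step of proline breakdown. Prodh was at 2.87, 1.84 and 2.14 TPM in the B2 libraries, at 2.31, 4.6 and 3.11 TPM in B2B1 and at 11.7, 10.04 and 9.9 TPM in B1. B2 and B2B1 overlapped, and B1 lay above both. Prodh was higher in B1 than in B2 by 1.82 ± 0.20 on the log2 scale (SE, limma adjusted p = 7.92e-05). The difference of B2B1 from B2 was 0.38 (95% interval −0.07 to 0.83, limma adjusted p = 0.12), and without B2B1 library 1 it was called, at 0.56 (limma adjusted p = 0.0304). Without B2B1 library 2 it was 0.18 and not called. Prodh lies on chromosome 16 at 18060357 to 18090203 and overlaps Dgcr6 on the opposite strand, with 0 exon bases in common.

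Other genes of proline use took other courses. Aldh4a1, which completes the conversion of proline to glutamate, was lower in B1 (12.7 ± 1.72 TPM) and in B2B1 (10.3 ± 1.48 TPM) than in B2 (19.8 ± 1.26 TPM; limma adjusted p = 0.00348 and 0.000294). Glud1, glutamate dehydrogenase, was at 104 ± 2.89 TPM in B2, 195 ± 19.4 TPM in B2B1 and 147 ± 5.8 TPM in B1, and Pepd, which frees proline from dipeptides, at 24.3 ± 0.273, 176 ± 34.2 and 141 ± 27.7 TPM. Both were higher in B2B1 than in B2 (limma adjusted p = 1e-05 and 1.3e-06), and Pepd was not called between B1 and B2B1 (limma adjusted p = 0.193). Prodh2, the hydroxyproline enzyme, was listed at 0 in all libraries. Of the 11 tested genes of the proline list, 4 were called higher and 1 lower than in B2, in B1 as in B2B1, with medians of 0.20 and 0.25. Between B1 and B2B1 the limma counts were 0 and 1 (0 and 2 at an unadjusted p under 0.05), with a median of −0.02. The lower count was 2 without B1 library 2 in both comparisons of B1, and 2 without B2 library 3 in B2B1 against B2.

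Gramd4 encodes a GRAM domain protein that promotes cell death in human cells. The gene lies on chromosome 15 at 86057695 to 86137634 on the plus strand. Gramd4 was at 55.3, 54.9 and 60.6 TPM in the B2 libraries, at 67.5, 55.7 and 122 TPM in B2B1 and at 108, 196 and 184 TPM in B1. B2B1 library 3 stood well above the other 2 of its group and within the range of B1, so Gramd4 is the member whose B1 and B2B1 values overlap. It was higher in B1 than in B2 by 1.45 ± 0.30 on the log2 scale (SE, limma adjusted p = 0.00301), and the difference of B2B1 from B2 was 0.43 (95% interval −0.23 to 1.10, limma adjusted p = 0.225). It ran from 0.11 without B2B1 library 3 to 0.67 without B2B1 library 2, stood at 1.07 among the Xist libraries alone (limma adjusted p = 0.0547), and was called in none of the 20 alternatives. B2B1 library 3 is also the only B2B1 library with Xist. The gap between B1 and B2B1 was 1.02 in all libraries, 0.66 with sex as a term, 0.36 among the Xist libraries alone and 1.35 without B2B1 library 3.

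Other GRAM domain genes took different courses. Gramd1a, a sterol transporter at contacts of the endoplasmic reticulum with the plasma membrane, was lower in B1 (75.8 ± 6.51 TPM) and in B2B1 (70.5 ± 2.87 TPM) than in B2 (153 ± 8.71 TPM; limma adjusted p = 7.93e-06 and 3.38e-06). Gramd1b, its paralogue, was higher by 1.83 on the log2 scale in both (limma adjusted p = 3.62e-06 and 2.75e-06), at 9.41 ± 1.15, 35.8 ± 1.73 and 36.1 ± 5.38 TPM in B2, B2B1 and B1. Gramd2 averaged 0.123 ± 0.134, 19.6 ± 9.13 and 40.9 ± 20 TPM in the same order and was called higher than in B2 in both (limma adjusted p = 3.12e-05 in B2B1 and 1.1e-05 in B1). Of the 13 tested genes, 4 were called higher and 4 lower in B1 than in B2, and 5 higher and 4 lower in B2B1, with medians of 0.23 and 0.03. Between B1 and B2B1, 2 were called higher and 0 lower by limma (5 and 1 at an unadjusted p under 0.05), with a median of 0.10. The 2 were Gramd1c, lost in 14 of 20 alternatives, and Tbc1d9, lost in 7, both named after their values were seen. The higher count was 1 when any library other than B2B1 library 1 was left out, and the lower count was 1 without B1 library 2. Cerk, the ceramide kinase gene 1494 bases from Gramd4 on the opposite strand, was at 157 ± 11.2 TPM in B2, 27.8 ± 10.7 TPM in B2B1 and 81.8 ± 14.5 TPM in B1, and was called lower than in B2 in both (limma adjusted p = 3.72e-05 and 0.0134).

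Sipa1l1 encodes a GTPase-activating protein for Rap, a small GTPase that controls integrin adhesion, and is known from dendritic spines in rat neurons. The gene lies on chromosome 12 at 82169320 to 82451786 on the plus strand. Sipa1l1 was at 33.01, 32.04 and 32.4 TPM in the B2 libraries, at 27.2, 32.6 and 44.4 TPM in B2B1 and at 79.6, 70.4 and 80.4 TPM in B1. B2B1 spread on both sides of B2, and all B1 libraries lay above. Sipa1l1 was higher in B1 than in B2 by 1.21 ± 0.15 on the log2 scale (SE, limma adjusted p = 0.000166). The difference of B2B1 from B2 was 0.06 (95% interval −0.27 to 0.40, limma adjusted p = 0.726). Its sign turned without B2B1 library 3 (−0.12), and among the Xist libraries alone, with that library as the lone B2B1 sample assumed to vary like the others, it was called at 0.43 (limma adjusted p = 0.0333).

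Sipa1 and the exchange factors Rapgef4 and Rasgrp2 were highest in B2. Sipa1, the best-known Rap GTPase-activating protein of lymphocytes, was at 434 ± 15.9 TPM in B2, 118 ± 10 TPM in B2B1 and 163 ± 3.64 TPM in B1, and fell by 1.88 ± 0.07 on the log2 scale in B2B1 (limma adjusted p = 1.04e-07). Like Sipa1l1, it was higher in B1 than in B2B1, by 0.40 to 0.61 over the alternatives. Sipa1l2 and Sipa1l3 were not called in any comparison, with means of 9.29 to 12 TPM and 7.96 to 9.52 TPM. Rapgef4, a Rap exchange factor opened by cyclic AMP, was at 22.1 ± 2.45 TPM in B2, 0.957 ± 0.109 TPM in B2B1 and 5.72 ± 1.38 TPM in B1, and was higher in B1 than in B2B1 by 1.76 ± 0.15 (limma adjusted p = 0.000197). Rasgrp2, the calcium-driven exchange factor for Rap in lymphocytes, was at 402 ± 38, 121 ± 6.97 and 240 ± 7.88 TPM in B2, B2B1 and B1, and its gap between B1 and B2B1 was 0.99 ± 0.08 (limma adjusted p = 0.000157). In both, B1 lay between B2B1 and B2, whereas Sipa1l1 was highest in B1. Of the 21 tested genes of the Rap list, 7 were called higher and 9 lower in B1 than in B2, 4 higher and 10 lower in B2B1 than in B2, and 5 higher and 1 lower in B1 than in B2B1, with medians of −0.20, −0.32 and 0.20. After median-of-ratios scaling, B2B1 against B2 had 6 higher and 7 lower, and B1 against B2 kept 7 and 9. The single lower call between B1 and B2B1 was lost when any library other than B2B1 library 1 and B1 library 1 was left out.

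Cyth3 encodes cytohesin 3, an exchange factor for Arf GTPases that is recruited to membranes by the lipid product of PI3 kinase. The gene lies on chromosome 5 at 143622447 to 143710250 on the plus strand. Cyth3 was at 5.66, 5.26 and 6.05 TPM in the B2 libraries, at 4.4, 6.88 and 7.07 TPM in B2B1 and at 12.8, 10.8 and 15.1 TPM in B1. B2 and B2B1 overlapped, and B1 lay above both. Cyth3 was higher in B1 than in B2 by 1.05 ± 0.17 on the log2 scale (SE, limma adjusted p = 0.000951), the smallest such difference of the 10. The difference of B2B1 from B2 was 0.08 (95% interval −0.32 to 0.47, limma adjusted p = 0.724), and its sign turned without B2B1 library 2 (−0.010) or 3 (−0.027).

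The other cytohesins were more abundant than Cyth3 in TPM, and none was called higher in B1 or B2B1 than in B2. Cyth1, the main lymphocyte cytohesin, was at 207 ± 28.4 TPM in B2, 109 ± 8.61 TPM in B2B1 and 162 ± 20.2 TPM in B1, and fell by 0.92 ± 0.12 on the log2 scale in B2B1 (limma adjusted p = 0.000145). Like Cyth3, it was higher in B1 than in B2B1, by 0.57 (limma adjusted p = 0.0112), a call lost in 2 of 20 alternatives. Cyth2 fell by 0.62 ± 0.08 in B2B1 and by 0.48 ± 0.08 in B1 (limma adjusted p = 0.00014 and 0.00098), from 38.7 ± 1.64 TPM in B2. Cyth4 was called in no comparison, at 135 to 169 TPM in the group means. Acap1, an Arf6 GTPase-activating protein, was at 542 ± 16.6 TPM in B2, 102 ± 5.71 TPM in B2B1 and 174 ± 12.9 TPM in B1. Adap1, which binds the same lipid as Cyth3, fell by 3.39 on the log2 scale in B1 and by 3.38 in B2B1 (limma adjusted p = 4.04e-06 and 3.13e-06). Of the 30 tested genes of the cytohesin and Arf list, 6 were called higher and 14 lower in B1 than in B2. In B2B1 against B2, 6 were higher and 17 lower, and in B1 against B2B1, 6 were higher and 3 lower. The medians were −0.31, −0.35 and 0.01. Of all tested genes, 33.9% were called lower in B1 than in B2 and 42.0% in B2B1. After median-of-ratios scaling, the list had 9 higher and 10 lower in B1, and 10 higher and 13 lower in B2B1, against B2. The 6 higher calls between B1 and B2B1 were 3 without B2B1 library 1, B2B1 library 2 or B1 library 3, and 2 among the Xist libraries alone. Usp42, which ends 75 bases from the end of Cyth3 on the opposite strand, was at 18.9 ± 1.17 TPM in B2, 10.2 ± 0.457 TPM in B2B1 and 12.6 ± 1.12 TPM in B1. The library kit does not mark strand, so reads of antisense partners could not be told apart.

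**Figure D4:**
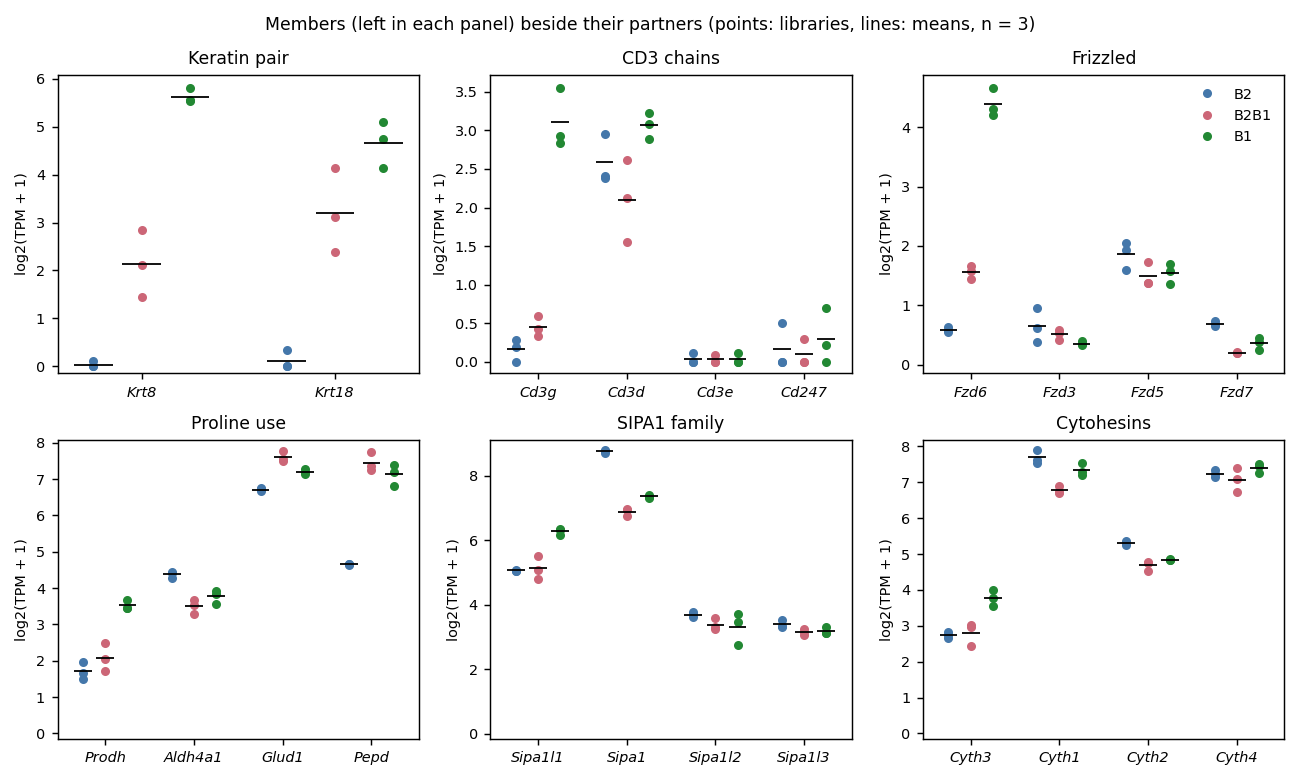
Levels on the log2(TPM + 1) scale of 6 of the genes (leftmost in each panel) and of their partners or relatives in the 9 libraries, in the order B2, B2B1, B1 for each gene, with a line at the mean of the log2 values (n = 3). Krt18 has a smaller step from B2B1 to B1 than Krt8, Cd3e and Cd247 stay near 0, and Sipa1 and Cyth1 are highest in B2 where Sipa1l1 and Cyth3 are highest in B1. The means of Sipa1 and Cyth1 are also higher in B1 than in B2B1.

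AI427809 and E330020D12Rik are annotated as non-coding RNAs with no role given in the annotation. AI427809, a lincRNA on chromosome 4 at 53261356 to 53270232, was at 3.52, 3.93 and 2.58 TPM in the B2 libraries, at 5.57, 2.5 and 4.2 TPM in B2B1 and at 39.4, 24 and 39.9 TPM in B1. B2 and B2B1 overlapped, and every B1 library lay far above them, 8.42-fold over B2B1 on mean TPM. AI427809 was higher in B1 than in B2 by 3.00 ± 0.26 on the log2 scale (SE, limma adjusted p = 2.21e-05). The difference of B2B1 from B2 was 0.19 (95% interval −0.41 to 0.79, limma adjusted p = 0.545), and −0.014 without B2B1 library 1. Its neighbour Slc44a1, a choline transporter gene 170181 bases away, was at 6.93 ± 1.07 TPM in B2, 10.5 ± 1.33 TPM in B2B1 and 11.8 ± 0.808 TPM in B1 and was called higher than in B2 in both. The nearer neighbour 4930522O17Rik, 10241 bases away, was listed at 0 in all libraries.

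E330020D12Rik, on chromosome 1 at 153404827 to 153414233, was at 22, 20.03 and 22.8 TPM in the B2 libraries, at 38.6, 38.8 and 22.6 TPM in B2B1 and at 105, 115 and 56.7 TPM in B1. B2B1 library 3 lay within the range of B2 while the other 2 lay above it, and B1 library 3 was the lowest of its group. E330020D12Rik was higher in B1 than in B2 by 1.98 ± 0.28 on the log2 scale (SE, limma adjusted p = 0.000365). The difference of B2B1 from B2 was 0.56 (95% interval −0.06 to 1.19, limma adjusted p = 0.104). It was called in 5 of 20 alternatives at 0.56 to 0.81, which included leaving out B2B1 library 3 (0.81, limma adjusted p = 0.0274) or B1 library 3 (0.56, limma adjusted p = 0.0324), and was 0.01 among the Xist libraries alone. Other transcripts share 13.3% of its 31-base stretches. Its neighbour Lamc1, a laminin chain gene 72041 bases away, was at 8.22 ± 0.61, 12.3 ± 1.22 and 19 ± 0.628 TPM in B2, B2B1 and B1. The nearer neighbour Shcbp1l, 10929 bases away, was at 3.21 ± 0.822, 1.48 ± 0.407 and 3.67 ± 0.823 TPM in the same order. Shcbp1l was called lower in B2B1 than in B2 (limma adjusted p = 0.00898) and was not called between B1 and B2 (limma adjusted p = 0.55).

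The genes whose profile over the 9 libraries was most like the mean profile of the 10 were, by Pearson's r and as a description only, Plcb4 (0.991), Cd5 (0.986), Fgd2 (0.984), Ckb (0.984), Gm15772 (0.984), A430093F15Rik (0.983), Zcchc3 (0.98), Cecr2 (0.98), Gm10451 (0.98) and Gm12505 (0.979). The points share 3 groups, so r reflects mostly the group means. Cd5, a surface glycoprotein that defines the B-1a subset, was at 0.874 ± 0.243 TPM in B2, 1.46 ± 0.338 TPM in B2B1 and 18.8 ± 4.88 TPM in B1, so it had the pattern of the steep group although the sum of the B-1 markers was higher in B2B1 than in B1. Plcb4, a phospholipase C, was at 0.145 ± 0.0853, 1.06 ± 0.225 and 7.05 ± 1.36 TPM in B2, B2B1 and B1, and Ckb, the brain creatine kinase, at 0.464 ± 0.0846, 2.89 ± 1.19 and 18.2 ± 0.583 TPM. Taken singly, the most alike gene was Wdr92 for Krt8 (0.992), Plcb4 for Fzd6 (0.994), Cd5 for Cd3g (0.989), Sorcs2 for Fbxw13 (0.993), Kcnh6 for Prodh (0.981), Lrrc8c for Gramd4 (0.944), Fam105a for Sipa1l1 (0.97), Kdm6b for Cyth3 (0.967), Agbl1 for AI427809 (0.983) and Polr1a for E330020D12Rik (0.978).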

How the data were processed

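Gene expression was measured by RNA-seq in 9 libraries, 3 each of B2, B2B1 and B1 cells. RNA came from a Qiagen RNeasy micro column and went into Illumina TruSeq RNA v2 libraries, per the labels' protocols. Per the submitters' processing notes, the authors used CASAVA 1.8.2 and kallisto with the build mm10; no kallisto version or transcript set is given in the sources used here. The authors' deposited gene table gives TPM for 22178 genes. A second deposited table of TPM for a gene signature was not used.

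Genes with a mean of at least 1 TPM (11099) were fitted as log2(TPM + 1), which understates differences of low genes, with limma 3.58.1 under R 4.3.3 (eBayes with trend; prior degrees of freedom 2.92) in one model over all 9 libraries. Benjamini-Hochberg adjustment of the two-sided p-values ran over all tested genes of a comparison, and intervals are 95%. An exact permutation test of 3 libraries against 3 cannot go below 0.1, so none was run. The fit was tested on simulated data.

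The members and the 8 partner lists (185 genes, 118 tested) were chosen with earlier results of these data known. Named partners are, per list, the 3 tested genes with the smallest adjusted p between B1 and B2B1, the 2 with the smallest between B2B1 and B2, and fixed family members; not all are described. Lists of NK cell, mast cell and eosinophil, dendritic cell and neutrophil markers were also measured. Positions are from GENCODE M21 (GRCm38, the assembly of mm10), promoters from RefSeq. Alternatives covered pseudocounts, filters, scaling, library weights, sex, the replicate block and left-out libraries. Python 3.11.15 with matplotlib 3.10.9 drew the figures.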

Additional observations from a re-analysis of the deposited data

How the results depend on the processing

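All 10 genes stayed called higher in B1 than in B2 in all 20 alternatives, with adjusted p up to 0.0141, and Fbxw13, Krt8 and Fzd6 stayed called higher in B2B1 than in B2 in all of them. The B1 and B2B1 libraries took part in the choice of the genes, so this stability is not independent of that choice. With the filter on low values, Cd3g was tested only because of its B1 level. The number of the 10 called higher in B2B1 was 5 with median-of-ratios scaling and 3 to 4 in the other alternatives. Of the 7 uncalled genes, 3 changed sign. When single libraries were left out, AI427809 ran from −0.014 to 0.44, Sipa1l1 from −0.12 to 0.22 and Cyth3 from −0.027 to 0.26, with Cyth3 at −0.010 without B2B1 library 2, and AI427809 was also at −0.014 when both B2B1 library 1 and B1 library 2 were dropped. The median log2 difference of the 10 between B1 and B2B1 was 2.38 with a pseudocount of 0.1, 2.26 with 0.5, 2.21 among the Xist libraries alone and 1.90 to 2.21 when 1 library was left out.

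Counts over many genes moved most between B1 and B2B1. All genes called higher numbered 681 with only those 2 groups fitted, 500 with sex as a term, 214 among the Xist libraries alone, an alternative chosen after seeing the data, and 789 to 1426 when 1 library was left out, with 892 without B2B1 library 2 and 789 without B1 library 1. Those called lower numbered 448, 342 and 194 in the first 3 of these settings. Partner genes called higher numbered 21 as reported and 12, 8 and 6 in those settings, and 12 to 19 when 1 library was left out, the lowest without B1 library 3 and 13 without B2B1 library 1, B2B1 library 2 or B1 library 1. Partner genes called lower numbered 9 as reported and 4, 1 and 1. In the Xist libraries, B2B1 against B2 gave 1453 genes higher and 2770 lower. The Xist subset has 1 B2B1 library, and the cause of the other changes was not tested.

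Deviations of libraries with the same replicate number correlated at −0.058 to 0.123 over 9 pairs. Pairs with different numbers ran from −0.205 to 0.125. These values show no pairing by number, but they cannot exclude it. With the replicate block, 10 and 3 of the 10 genes were called in B1 and B2B1 against B2, and 1067 genes were called higher in B1 than in B2B1. Depth is unknown, so counting error at levels near 0 TPM could not be judged.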
